A study of Equus caballus with 32 samples.

Results

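The genes described here were below 1 CPM in most libraries of horse synovium at week 0 of the study and at a low level above it in most libraries at week 10. They were chosen from the measured values. CPM is a gene's count divided by the total count of its library and scaled to a total of 1000000. A gene is a member if it reached 1 CPM in at most 4 of the 16 week 0 libraries and in at least 10 of the 16 week 10 libraries, with a mean log2(CPM + 0.5) over all 32 libraries under 2. The rule found 74 of 19418 genes, which is 0.381% of the table and 1.25% of the 5934 genes that met its week 0 condition. The limit on the mean level removed 0 genes. Since the rule uses the contrast of week 10 with week 0, that contrast is described below without a test, and only comparisons between the treatment arms were tested.

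Synovium is the membrane that lines a joint. Its lining layer holds fibroblasts that secrete lubricant and hyaluronan and macrophages that clear debris, and the layer beneath holds fibroblasts, vessels, nerves and fat. In osteoarthritis the membrane can thicken, scar and take up immune cells, so a transcript seen at a low level in bulk tissue may belong to a cell type that is scarce in the resting membrane. In bulk RNA, fewer cells of a type and less RNA per cell cannot be told apart.

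The series followed 16 horses, 8 allocated at random as controls and 8 given iPAAG, which is a 2.5% hydrogel of polyacrylamide for injection into joints. Each horse gave 1 library at week 0, taken by arthroscopy before an osteochondral fragment was made in a middle carpal joint, and 1 library at week 10, taken after death. All 16 horses of both arms had the fragment in 1 joint and a sham arthroscopy in the opposite joint, and the labels leave unstated the joint behind each library, the time of iPAAG and what control horses received. The biopsies were digested with collagenase and the recovered cells were lysed for poly(A) RNA, so cells lost in digestion are not represented. Breed, sex and age are not in the labels. The table names genes by Ensembl identifiers, and 0 of its 19418 identifiers could be paired with a symbol, so the tissue was not checked against marker genes, and the roles and sequences of the members are not given.

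Total counts per library ranged from 5428928 to 56476566, so that 1 CPM stood for between 5.43 and 56.5 counts. Of the week 10 libraries, those of control horses 2 and 11 differed from the rest, with 12018 and 11373 genes detected against 15684 to 17410 in the other 14 week 10 libraries. Many results are also given without these horses. All members were counted by the same deposited table, and no statement is made about overlapping genes or near-identical copies.

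The members were not absent at week 0. Every member had at least 1 count in at least 12 of the 16 week 0 libraries, and 44 members had a count in all 16. The mean level of a member at week 0 ranged from 0.270 to 1.21 CPM, with a median over members of 0.649 CPM. At week 10 it ranged from 1.13 to 7.19 CPM, with a median of 1.90 CPM. The members are therefore genes that moved from below to above 1 CPM rather than genes switched on from zero. Of the 74, 5 members reached 1 CPM in 0 week 0 libraries, and 26 members were at the limit of 4. At week 10, 23 members were at the limit of 10 libraries, 20 were at 11, 17 at 12, 8 at 13, 4 at 14 and 2 at 15. No member reached 1 CPM in all 16 week 10 libraries.

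The thresholds cut through a continuous range of genes. Just outside the rule were 46 genes with 9 week 10 libraries, with medians of 0.656 CPM (week 0) and 1.73 CPM (week 10). The 23 members with 10 week 10 libraries had medians of 0.632 and 1.62 CPM. On the week 0 side, 45 genes with 5 libraries had medians of 0.875 and 1.95 CPM, against 0.763 and 1.98 CPM for the 26 members with 4 libraries. Membership also moved when all libraries were thinned to the smallest total in a single random draw. Thinning adds sampling noise, which was not told apart from a part of depth. The rule then found 81 genes, of which 46 were among the 74. Without control horses 2 and 11 it found 82 genes, of which 59 were among the 74.

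The number of members at 1 CPM or more was counted in each library, and the rule itself sets it low at week 0 and high at week 10. At week 0 it was lowest at 1, with a median of 9 and a highest value of 25, in the 8 control horses, and 4, 12 and 28 in the 8 iPAAG horses. At week 10 it was 24, 54 and 63 in control horses and 35, 58.5 and 71 in iPAAG horses. The weeks overlapped only through control horses 2 and 11, which both stood at 24 members at week 10, where the other 14 horses stood at 35 to 71. Without these horses, the week 10 control libraries ranged from 48 to 63 with a median of 57, inside the range of the iPAAG libraries.

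**Figure D1:**
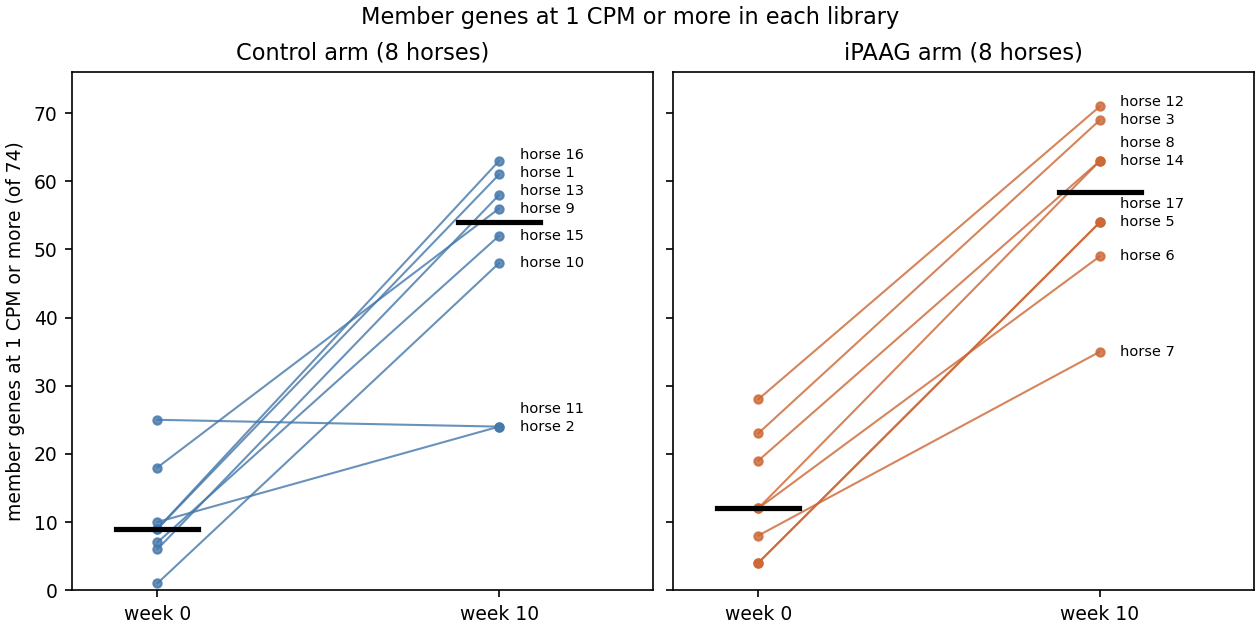
Number of the 74 member genes at 1 CPM or more (vertical axis) in each library at week 0 and week 10, by arm; each line joins the 2 libraries of a horse and black bars are group medians. In 14 horses the line climbs to between 35 and 71 members, while control horses 2 and 11 end at 24.

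Summed over the 74 members, the level was higher at week 10 in 16 of 16 horses. The rule chose the members by these values, so it favours this direction. The sum at week 0 ranged from 25.9 to 70.8 CPM with a median of 47.5 CPM over the 16 horses, and at week 10 from 96.0 to 256 CPM with a median of 147 CPM. The ratio of week 10 to week 0 within a horse had a median of 3.46 in the control arm, from 1.93 in horse 9 to 4.63 in horse 10. In the iPAAG arm it had a median of 3.48, from 2.12 in horse 8 to 3.96 in horse 5. The ratios of the arms overlapped over most of their range.

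Horse by horse, the pattern was incomplete. Among the 1184 combinations of a horse and a member, 697 (58.9%) reached 1 CPM at week 10 only, 147 (12.4%) at both weeks, 48 (4.05%) at week 0 only and 292 (24.7%) at neither week. Crossing the level at week 10 only was seen for 18 to 54 members per control horse and for 33 to 51 members per iPAAG horse. Horse 12 of the iPAAG arm had the most members at 1 CPM in each week, with 28 at week 0 and 71 at week 10, and 27 of them were the same members. Horse 7 of the same arm had 8 and 35, the fewest at week 10 outside control horses 2 and 11. Of the members, 54 were higher at week 10 in at least 13 of the 16 horses, and 1 was higher in all 16. Over the 14 horses without 2 and 11, 25 members were higher in all 14. The rule, which used these values, raises such counts. The weeks overlapped for all 74 members over the 16 libraries of each, where 0.0387% of 15498 genes had every week 10 library above every week 0 library.

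The mean difference of log2(CPM + 0.5) between week 10 and week 0 ranged over members from 0.31 to 1.77 with a median of 0.94, and 32 members had a difference of 1 or more. The median over all genes of the table was -0.00. In the control arm the median over members was 0.82, and 1 member had a difference below 0. In the iPAAG arm the median was 1.01, and all 74 members were above 0. Without control horses 2 and 11 the control median was 1.13 and all 74 members were above 0 there too. Both medians describe values that chose the members. In both arms the contrast of the weeks joins the passing of time, the joint disease that was induced and a biopsy taken after death in place of arthroscopy, which cannot be told apart. In the 8 iPAAG horses it also holds iPAAG, which the comparison of the arms addresses.

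The week 10 libraries of control horses 2 and 11 carried few members at high levels instead of many at low levels. This scarcity of low values was not particular to the members. Of all genes detected, 11640 of 12018 in horse 2 and 10950 of 11373 in horse 11 were at 1 CPM or more. The other 14 week 10 libraries had 12780 to 13848 genes at 1 CPM or more, of 15684 to 17410 detected. Of the 74 members, 48 were at 0 counts in each of the libraries of horses 2 and 11, where the other 14 week 10 libraries had 0 to 2 members at 0. In 30 members both libraries were at 0, in 36 members 1 of them was, and 8 members had counts in both. The 26 members with a count in horse 2 had a median of 4.05 CPM there, against 1.39 CPM for the same members in the other 14 libraries. The 26 members with a count in horse 11 had a median of 5.38 CPM there, against 1.59 CPM in the other 14 libraries. In horse 11, 19 members stood above all of the other 14 libraries, and in horse 2 this held for 11 members. The share of all genes for which this held was not counted. Although 50 of 74 members were no higher at week 10 in each of these horses, their summed level was still 2.82 times its week 0 value in horse 2 and 2.57 times in horse 11. Only the library of horse 2 had a low total, 5428928 counts, the smallest of all. That of horse 11 had 28614860 counts and 11373 genes detected. At week 10, control horse 1 had 17410 genes at 26051990 counts, and control horse 15 had 16876 genes at 24296609 counts. The part of depth or of missing genes in the levels of the members was not tested. A few libraries therefore weigh heavily on single members: the highest library held from 10.1% to 49.6% of a member's week 10 sum over 16 libraries, with a median of 17.6%. It held over 30% in 9 members, of which 4 were highest in horse 11, 2 in horse 2, 2 in horse 12 and 1 in horse 15.

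**Figure D2:**
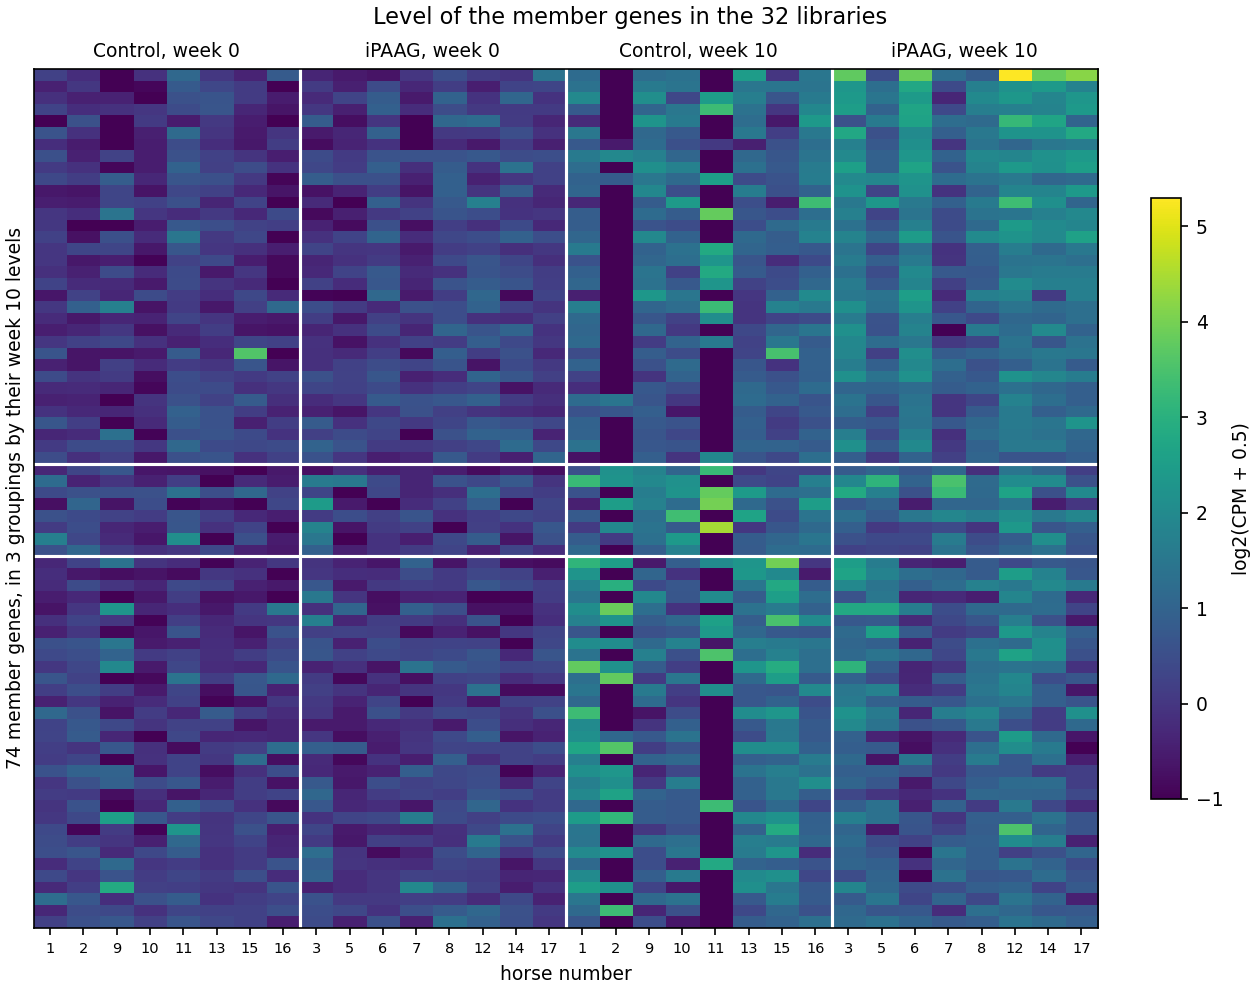
Level of each of the 74 member genes (rows) in the 32 libraries (columns, by horse number within arm and week) as log2(CPM + 0.5), dark for low and bright for high; white lines part the 4 groups of libraries and 3 groupings of members. The week 10 libraries of control horses 2 and 11 are dark for 48 of the 74 members and bright for several of the rest.

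The number of horses in which a member reached 1 CPM at week 10 was split between the arms as follows. In the iPAAG arm, 13 members reached it in 8 of 8 horses, 19 in 7, 20 in 6, 14 in 5, 7 in 4 and 1 in 3. In the control arm, 1 member reached it in 8 of 8 horses, 7 in 7, 29 in 6, 13 in 5, 18 in 4 and 6 in 3. More iPAAG than control horses reached the level for 43 members, fewer for 20, and the numbers were equal for 11. The average share of horses was 77.4% in the iPAAG arm and 65.2% in the control arm, and it was 76.1% over the 6 control horses without 2 and 11. Among those 6 horses, 16 members were at 1 CPM in all, 23 in 5, 25 in 4, 7 in 3 and 3 in 2. At week 0, 14 members reached 1 CPM in 0 of 8 iPAAG horses and 21 in 0 of 8 control horses, and at most 4 horses of an arm reached it for any member.

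The member with the largest difference between the weeks was ENSECAG00000009026. In control horses it stood at 0 to 1.67 CPM at week 0, with a median of 0.476 CPM. At week 10 the control libraries ranged from 0 to 5.06 CPM with a median of 1.85 CPM, and the libraries at 0 were those of horses 2 and 11. In iPAAG horses it stood at 0.130 to 2.14 CPM at week 0, with a median of 0.485 CPM. At week 10 the iPAAG libraries ranged from 0.912 to 38.9 CPM with a median of 13.4 CPM. Within the iPAAG arm at week 10, horses 3, 6, 12, 14 and 17 were at 13.1 CPM or more, while horses 5, 7 and 8 were at 0.912, 1.88 and 1.28 CPM, inside the range of the control horses. Week 10 exceeded week 0 in 14 of 16 horses, all but control horses 2 and 11.

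The second largest difference was that of ENSECAG00000009472, whose values were the more even of these 2 members. In control horses it stood at 0 to 1.21 CPM at week 0, with a median of 0.381 CPM. At week 10 it was at 0 in control horses 2 and 11 and between 2.11 and 2.50 CPM in the other 6. In iPAAG horses the range was 0.221 to 0.865 CPM at week 0, with a median of 0.587 CPM. At week 10 the iPAAG libraries ranged from 0.831 to 6.38 CPM with a median of 3.51 CPM, lowest in horse 7 and highest in horse 6. Apart from horses 2 and 11, every horse was higher at week 10, 14 of 16 in all.

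**Figure D3:**
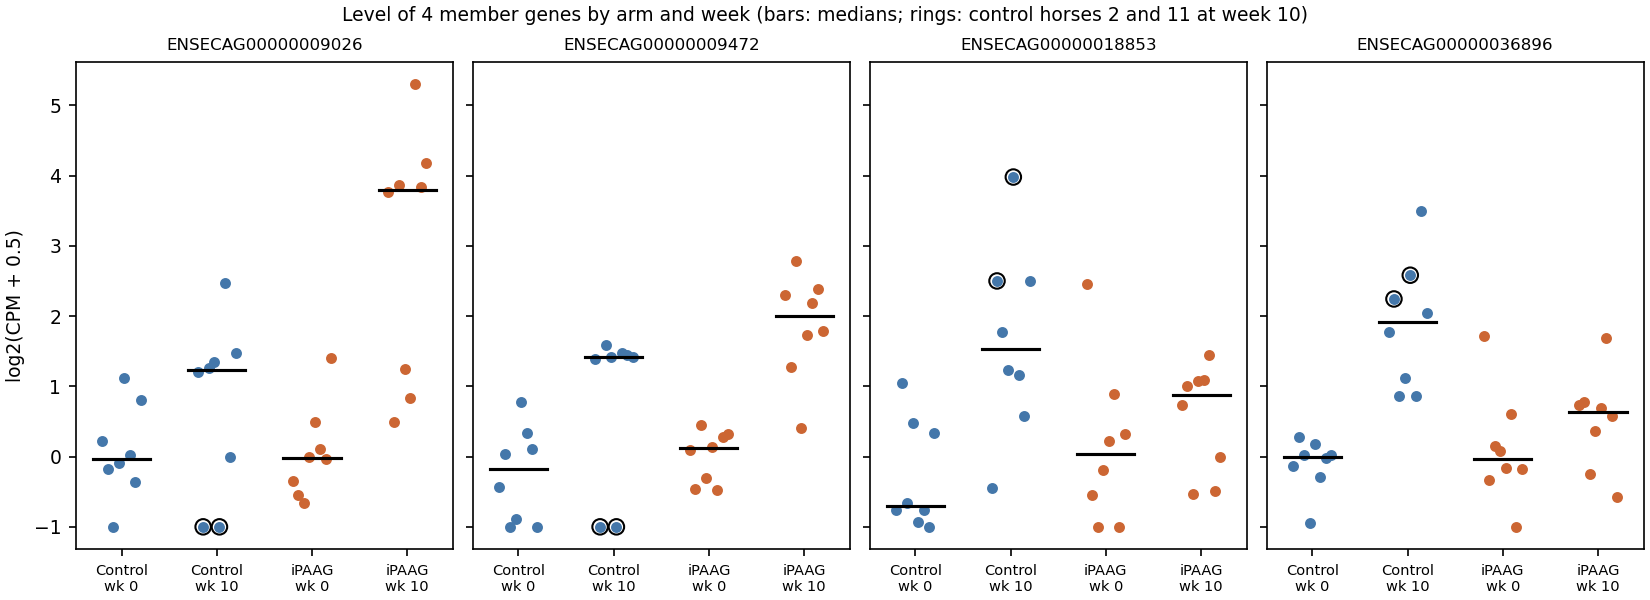
Level of 4 member genes as log2(CPM + 0.5) (vertical axis) in the 8 libraries of each arm and week; points are libraries, bars are medians and rings mark control horses 2 and 11 at week 10. ENSECAG00000009026 and ENSECAG00000009472 were at 0 CPM in both ringed libraries, where ENSECAG00000018853 and ENSECAG00000036896 were at 4.24 to 15.3 CPM.

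The members did not vary as 1 block across horses. Over the 14 week 10 libraries without control horses 2 and 11, Pearson's r of log2(CPM + 0.5) between 2 members had a median of 0.15 over 2701 pairs, from -0.17 at the lower quartile to 0.43 at the upper, and was over 0.7 in 7.03% of pairs. Over all 16 week 10 libraries the median was 0.18. It was 0.25 over the 8 iPAAG libraries and 0.06 over the 6 control libraries. Members share libraries and their totals, so these values describe likeness only.

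When members were sorted by that likeness over the 14 libraries (average linkage, 3 groupings chosen after the values were seen), 34, 8 and 32 members fell together. The 34 members were high in iPAAG horse 6, at a median of 3.47 CPM, and in iPAAG horses 3, 12, 14 and 17, at 2.46 to 2.84 CPM. They stood at 0.988 CPM in control horse 15 and at 0.843 CPM in iPAAG horse 7. The 32 members were high in control horses 1 and 15, at medians of 2.94 and 2.61 CPM, and next in iPAAG horse 12, at 2.14 CPM. They were low in iPAAG horses 6 and 7, at 0.559 and 0.831 CPM. Horses 6 and 15 thus stood in opposite order in the larger groupings, while horse 12 was high in both and horse 7 low in both. The same values sorted the members. The 8 members were highest in control horse 10, at a median of 3.46 CPM over the 14 libraries sorted. In control horse 11, which the sorting did not use, 4 of the 8 were at 0 CPM and 4 at 9.02 to 21.2 CPM. At week 0, whose values the sorting did not use, the median r over 16 libraries was 0.29 within the 34 members and 0.07 between these and the 32. Within the 32 it was 0.14, the same as over all pairs of members and close to the 0.16 between the 32 and the 8, so the 32 stood no closer to each other at week 0 than members did in general.

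**Figure D4:**
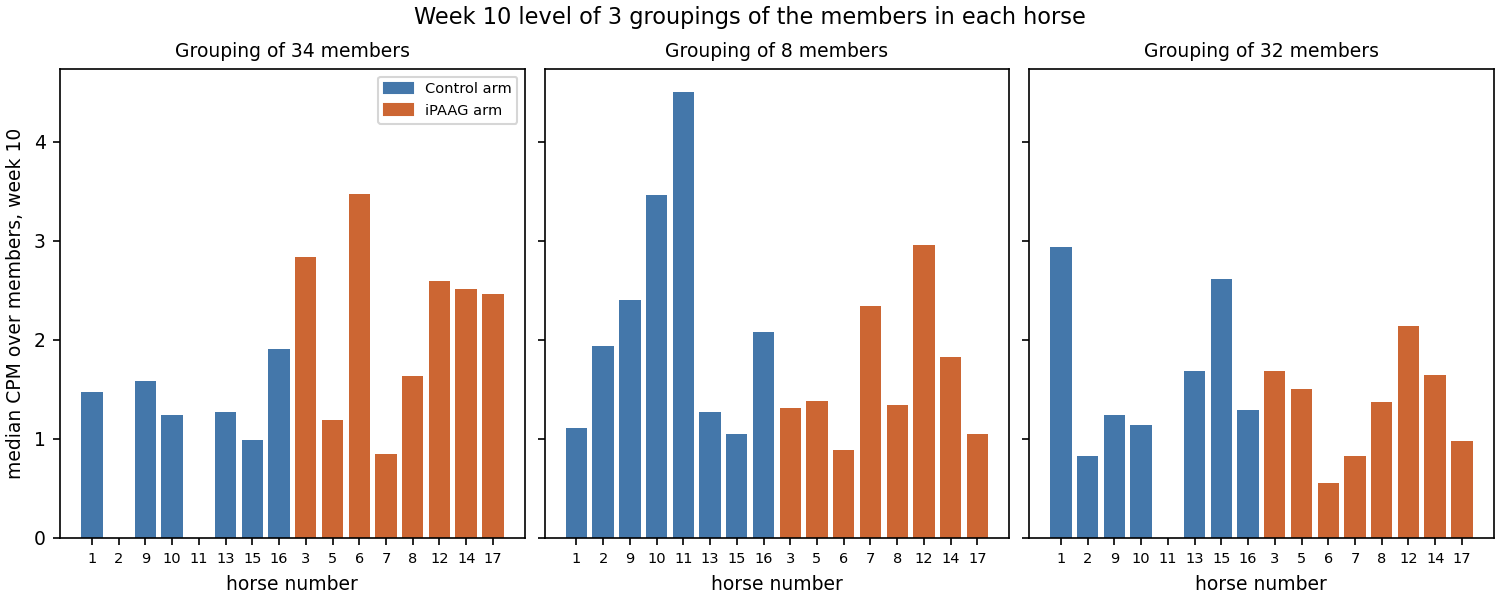
Median week 10 CPM (vertical axis) of the members of each of 3 groupings in each horse, with control horses at the left and iPAAG horses at the right of each panel; bars are single libraries. Horse 6 has the highest bar for the 34 members and, of the horses other than 11, the lowest for the 32 members.

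The study asked whether synovium differed between horses given iPAAG and control horses. The rule pooled the arms, so the arms were compared at week 10 with edgeR over the whole table, using the 16 week 10 libraries. None of the 74 members differed at an adjusted p under 0.05 (lowest 0.339), nor did any of the 14654 genes tested, a background of 0%. The unadjusted p was under 0.05 for 6 members, which is 8.11% of the 74 against 10.6% of all genes tested. In iPAAG horses 3 of these members were higher, 4.05% of the 74 against 4.16% of all genes. Another 3 members, the same share, were lower, against 6.44% of all genes. The log2 value was above 0 for 38 members, 51.4% against 49.6% of all genes, with a median of 0.02 over members and -0.00 over all genes. The arms' libraries overlapped for all 74 members, and 0.0478% of all genes did not overlap. Without control horses 2 and 11 there were 0 calls at the adjusted threshold, and 10 members at an unadjusted p under 0.05, 13.5% against 10.8% of genes. Of the 10, 8 were higher in iPAAG horses, which is 10.8% of the 74 members against 4.8% of genes. The log2 value was then above 0 for 48 members, 64.9% against 48% of genes, with a median of 0.31 over members and -0.01 over all genes.

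At week 10 the 95% interval stayed inside a 2-fold change for 0 of 74 members, against 47.6% of all genes tested, and inside a 4-fold change for 29 members (39.2%), against 82%. Over all 16 libraries, a 2-fold difference between the arms was therefore not excluded for any member. Without control horses 2 and 11 the interval stayed inside a 2-fold change for 2 members, against 63.9% of genes, and inside a 4-fold change for 59 members (79.7%), against 89.7%.

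The 74 log2 values at week 10 ranged from -2.06 to 2.89. The highest was that of ENSECAG00000009026, at 2.89 (SE 0.88, edgeR adjusted p = 0.339), and it was 2.51 (SE 0.75) without control horses 2 and 11. The lowest was that of ENSECAG00000018853, at -2.06 (SE 0.76, edgeR adjusted p = 0.360). Its control libraries at week 10 ranged from 0.230 to 15.3 CPM with a median of 2.38 CPM, and its iPAAG libraries from 0.193 to 2.21 CPM with a median of 1.33 CPM. At week 0 they ranged from 0 to 1.56 CPM (median 0.111 CPM) in control and from 0 to 4.97 CPM (median 0.522 CPM) in iPAAG horses, and week 10 was higher in 14 of 16 horses. The libraries of the arms overlapped at both weeks. The highest control value at week 10 was that of horse 11, and without horses 2 and 11 the log2 value was -0.90 (SE 0.63, edgeR adjusted p = 0.641). For ENSECAG00000009472 the value was 1.08 (SE 0.69, edgeR adjusted p = 0.620), and 0.68 (SE 0.34) without control horses 2 and 11.

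DESeq2, run as an alternative, called 88 genes at week 10, a background of 0.669%, and 2 of the 74 members were among them. One was ENSECAG00000009026, at 2.92 (DESeq2 adjusted p = 0.04996). The other was ENSECAG00000036896, named here after its values were seen, at -1.98 (DESeq2 adjusted p = 0.0389), for which edgeR gave -1.94 (SE 0.57, adjusted p = 0.339). This member stood at 1.31 to 10.8 CPM with a median of 3.27 CPM in control horses at week 10, and at 1 CPM or more in 8 of 8. In iPAAG horses it stood at 0.173 to 2.73 CPM with a median of 1.05 CPM, and at 1 CPM or more in 4 of 8. At week 0 its medians were 0.497 CPM in control and 0.477 CPM in iPAAG horses. Week 10 exceeded week 0 in 8 of 8 control horses and in 5 of 8 iPAAG horses. With DESeq2 the unadjusted p at week 10 was under 0.05 for 13 of 74 members (17.6%), against 2140 of 19097 genes. In iPAAG horses 9 of these members (12.2% of the 74) were higher and 4 lower, against 844 genes higher and 1296 lower.

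Whether the change over 10 weeks differed between the arms was tested on the 32 libraries, blocked by horse. None of the 74 members passed the adjusted threshold in edgeR (lowest adjusted p 0.982), and 0% of 15498 genes did. The unadjusted p was under 0.05 for 1 member, 1.35% against 3.98% of all genes tested, and this member was on the lower side, as were 1.37% of genes. DESeq2 called 0 members and 11 genes, a background of 0.0566%. The member was ENSECAG00000036896, at -2.22 (SE 0.99, edgeR adjusted p = 0.982). The value was 2.74 (SE 1.39) for ENSECAG00000009026 and -1.94 (SE 1.38) for ENSECAG00000018853, each with an edgeR adjusted p of 0.982. For ENSECAG00000009472 the difference of changes was 0.13 (SE 1.76, edgeR adjusted p = 0.996). Over the edgeR alternatives its SE ran from 0.92 without control horses 2 and 11 to 3.01 without iPAAG horse 5, so this SE is unstable. The difference of changes was above 0 for 42 members, 56.8% against 62.1% of genes. Without control horses 2 and 11 it was above 0 for 27 members, 36.5% against 49.4% of genes. The share thus fell for members and for all genes alike, and that of the members was the lower with and without these horses. The 95% interval lay within 4-fold for 7 of 74 members, 9.46% against 66.1% of genes, and without control horses 2 and 11 for 20 members, 27.0% against 76.2% of genes.

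The arms were also compared at week 0, before the fragment was made. Of the members, 72 passed the filter on low counts and 2 did not. None of the 72 passed the adjusted threshold in edgeR (lowest adjusted p 0.794), and 0% of 14615 genes did. The unadjusted p was under 0.05 for 2 members, 2.78% against 5.84% of genes. Both were higher in iPAAG horses, so the share higher was 2.78% of the 72 against 2.29% of genes. DESeq2 called 0 members and 2 genes, a background of 0.0107%. The log2 value was above 0 for 42 of 72 members, 58.3% against 50.9% of genes, and for 50 of 72 without control horses 2 and 11, 69.4% against 51.3%. The interval lay within 4-fold for 54 of the 72 members, 75% against 94.2% of genes, and without control horses 2 and 11 for 44, 61.1% against 91.2%.

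**Figure D5:**
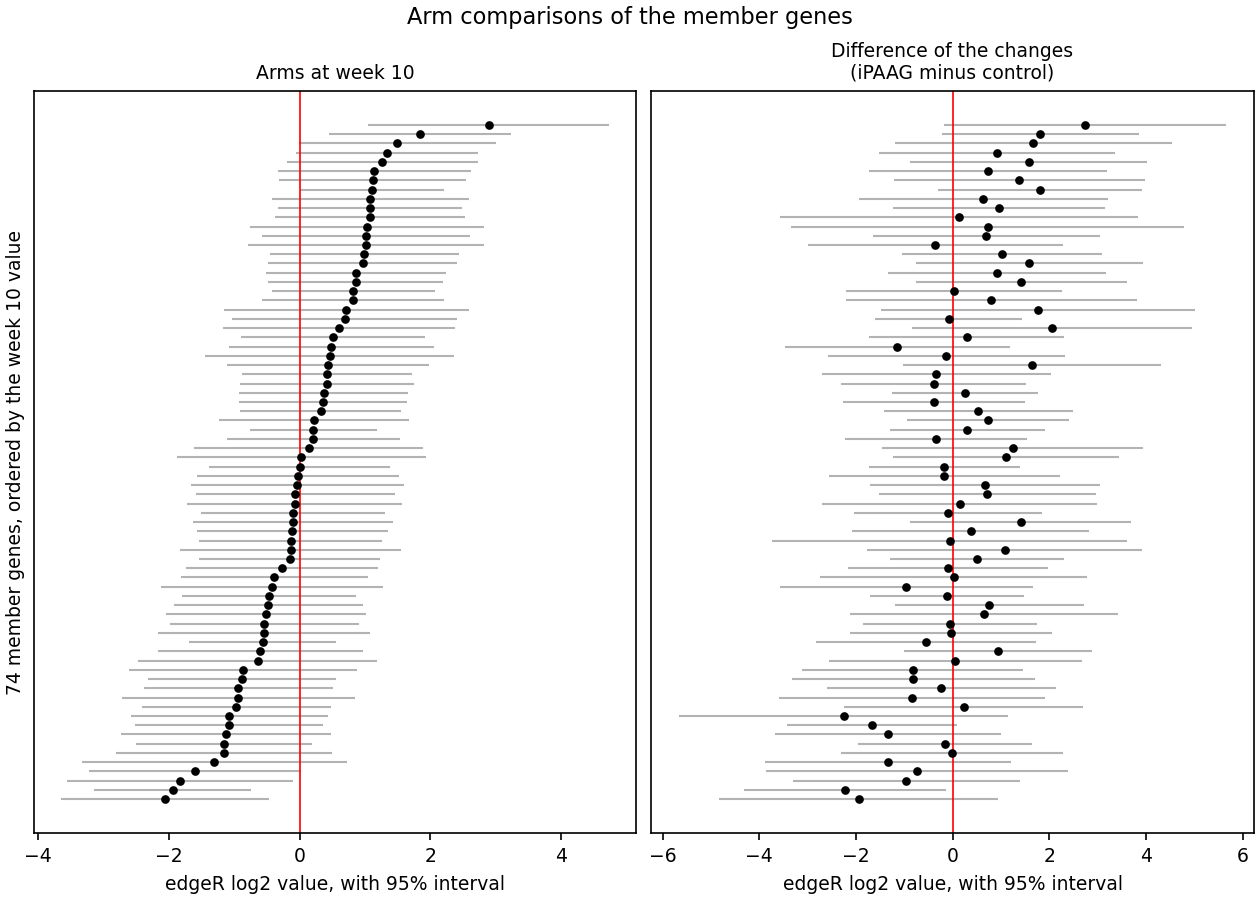
edgeR log2 values (horizontal axis) of the 74 members for iPAAG against control at week 10 (left) and for the difference of the changes over 10 weeks (right), with 95% intervals as grey lines and members in the same order in both panels. The week 10 values run from -2.06 to 2.89, and no member passed the adjusted threshold in either comparison.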

How the data were processed

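The authors deposited whole-number counts per Ensembl gene for 32 libraries, which look raw. STAR 2.7.10b, the build EquCab3.0 and limma 3.62.2 are named, per the submitters' processing notes, with no role stated. How reads were assigned to genes, and with which annotation and strand rule, is not given in the sources used here. Members and settings were chosen with earlier results of these data known. CPM was the count over the library total. The arms were compared with edgeR 4.0.16 (R 4.3.3): TMM factors, filterByExpr, a quasi-likelihood test and Benjamini-Hochberg adjustment over all genes tested, threshold 0.05, two-sided. The SE is the absolute log2 value over the square root of F. The scripts were tested on simulated data, where recovery of changed genes was required only above the members' level. Alternatives were DESeq2 1.42.0, its size factors, no filter, other fits and horses left out.

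The block rests on the same animal code at both weeks. Deviations of a horse's 2 libraries from their group means correlated with a median r of 0.109, from -0.320 to 0.472, over 13480 genes, above 0.1 in 8 of 16 horses. Horses are separate animals, so p-values measure the spread between animals with 1 library each.

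Named genes were to be the 20 members with a symbol found in most week 10 libraries and any listed gene. With 0 symbols matched, the rule was the 2 identifiers with the largest difference between weeks and those with the highest and the lowest value between arms at week 10. The gene and marker lists were not used, as they need symbols.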

Additional observations from a re-analysis of the deposited data

Results flagged for a closer look

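In 32 groups of 8 values (total counts, genes detected, members at 1 CPM, the members' summed CPM and the CPM of 4 members), the gap of the highest or lowest value to its neighbour was compared with the range of the group. Chance marks about 1.6 such groups, or 1 in 20, if values spread normally. CPM values were taken without logs and a normal spread was not checked. The 4 members were named for large differences between weeks or arms in these same libraries, so the chance rate does not apply to their groups. Of the 32, 9 were marked.

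For ENSECAG00000009026, control horse 13 at week 10 stood at 5.06 CPM, next to 2.29 CPM. In the iPAAG arm, horse 17 had 2.14 CPM of it at week 0, next to 0.902 CPM. Horse 12 had 38.9 CPM at week 10, next to 17.7 CPM. Horse 17 was therefore the highest iPAAG horse for this member at week 0 and the second highest at week 10.

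For ENSECAG00000018853, control horse 11 had 15.3 CPM at week 10, next to 5.16 CPM in control horse 2. At week 0, iPAAG horse 3 had 4.97 CPM, next to 1.35 CPM. That horse was lower at week 10, at 1.16 CPM.

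For ENSECAG00000036896, control horse 15 had 10.8 CPM at week 10, next to 5.49 CPM. In iPAAG horse 3 at week 0 it stood at 2.80 CPM, next to 1.02 CPM, and in iPAAG horse 12 at week 10 at 2.73 CPM, next to 1.21 CPM. Horse 3 at week 0 was thus marked for 2 of the 4 members. The ninth value was the total of iPAAG horse 7 at week 0, 32117791 counts, next to 42373584.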

How the results depend on the processing

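Recomputed under alternatives, 451 of 505 values kept their direction and call or stayed within 1.5 times (counts) or 1 SD. Of the 148 taken as main results, 140 did. These hold the calls between the arms and also values that answer no comparison, such as the number of genes the rule found. That number was judged by size alone, whichever genes it held. In the arm comparisons the SD was that of the members' own log2 values, a wide limit for their median, which every alternative met. The median counted as kept even where it changed sign. For the difference of changes it went from 0.19 to -0.23 without control horses 2 and 11. Counts of members at an unadjusted p under 0.05 moved by more than 1.5 times in 3 of 21 alternatives at week 10, 12 at week 0 and 11 for the difference of changes, so these small counts are unstable. The rule found 115 genes at 2 CPM in place of 1 CPM, of which 6 were members, and 57 at 0.5 CPM, of which 3 were members, so which genes belong is set by the level chosen. With TMM factors it found 77 genes, 69 of them members. DESeq2 called 88 genes (2 members) between the arms at week 10, 11 in the difference of changes and 2 at week 0. With the 4 groups in 1 fit and no block, 2 genes were called at week 10. Leaving out horses in turn gave 0 to 1 genes at week 10, the 1 without iPAAG horse 7, and the other counts of genes and members stayed at 0. Without the replicate block, 1 gene and 0 members differed in their change between arms, and the block changed no other call. Members at an unadjusted p under 0.05 at week 10 ranged from 4 to 12 over the horses left out, with 12 without control horse 11. For ENSECAG00000009472 the difference of changes was -0.0137 with DESeq2, -1.13 without control horses 2 and 11, and -0.50 to 0.75 over the horses left out; the cause was not tested. At these depths, 1 CPM is 5.43 counts in the smallest library.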

Other observations

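The opposite pattern, 1 CPM or more in at least 10 week 0 libraries and in at most 4 week 10 libraries with the same limit on the mean level, was met by 57 genes, against the 74 members. Their median level was 1.62 CPM (week 0) and 0.655 CPM (week 10), and the median difference of log2(CPM + 0.5) was -0.95. Of the 57, 41 (71.9%) were at 0 counts in the week 10 libraries of both control horses 2 and 11, where 30 of the 74 members (40.5%) were. A library at 0 counts toward the opposite pattern and against membership.

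Of the 5934 genes that reached 1 CPM in at most 4 week 0 libraries, 4275 (72.0%) reached it in 0 week 10 libraries and 578 in 1. The number then fell steadily, to 65 genes with 8 week 10 libraries, 46 with 9, 23 with 10 and 2 with 15.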
